A study of Homo sapiens with 8 samples.

Results

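This account covers 9 genes of mucus and of the mucus-secreting goblet cell, MUC1, MUC2, MUC13, TFF3, AGR2, SPDEF, ATOH1, FCGBP and REG4, in Caco-2 cells. They were chosen by name, and all 9 have a row in the deposited table of 58735 genes. Caco-2 is a human colorectal carcinoma line that takes on features of absorptive enterocytes in culture; the labels call its cell type stem cells and its genotype wild type, and both groups are this same line. The cells had received M2-exo, exosomes from the monocytic leukaemia line THP-1 (3 libraries, called M2-exo treated), or phosphate-buffered saline (3 libraries, called untreated). M2 usually stands for alternatively activated macrophages; the sources used here state neither the polarising agent, nor dose, duration or days in culture, nor whether the replicates were separate cultures. Each p-value therefore weighs the difference between the groups only against the scatter of these 6 libraries within them, and part of that scatter may be technical. The small RNA data of the exosomes were not used here.

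Intestinal mucus is built by goblet cells. The transcription factor ATOH1 commits a progenitor to the secretory lineages, and SPDEF, an ETS factor that acts after it, drives goblet cell maturation. The mature cell secretes MUC2, the gel-forming mucin of the intestine, together with FCGBP, a mucus protein bound to it, and TFF3, a small trefoil peptide that promotes epithelial repair. AGR2 is a protein disulphide isomerase of the endoplasmic reticulum that MUC2 needs for its assembly in mice. REG4 is a secreted lectin of the regenerating family, found in enteroendocrine and goblet-type cells. MUC1 and MUC13 are membrane mucins, anchored in the apical surface of epithelial cells and not restricted to goblet cells.

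Library totals lay between 17408745 and 18184325 counts in M2-exo treated cells and between 15608937 and 18324599 in untreated cells. The general epithelial markers were abundant: KRT8 averaged 713 FPKM (a depth- and length-scaled level, as deposited), KRT18 507 FPKM and KRT19 500 FPKM over the 6 libraries, while the colonic keratin KRT20 had 12 counts in all. The macrophage marker CD68 overlaps AC016876.2 on its own strand and AC016876.1, with 830 counts, on the other, so its count is uncertain. Of the 12 macrophage markers CD68 and TYROBP had no count and PTPRC had 1. Their summed level ran from 11.8 to 16.5 CPM (a depth-scaled count, with TMM library scaling) in M2-exo treated cells and from 13.2 to 16.8 CPM in untreated cells, led by CD14 with a mean of 6.99 CPM over all libraries. The library untreated 1 had a mitochondrial share of 4.16% of counts, against 7.01% to 8.11% in the other 5 libraries.

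Some of these goblet and mucin genes were expressed, while ATOH1, SPDEF, MUC2 and FCGBP had few counts or none. Compared per length of gene, the 9 genes spread from a high level to none, with AGR2 at the top. AGR2 averaged 146 FPKM over the 6 libraries, which put it at rank 181 of 19951 protein-coding genes. TFF3 followed at 27.8 FPKM (rank 1590), REG4 at 8.15 FPKM (rank 5153) and MUC13 at 1.49 FPKM (rank 9819). Each of these stood clear of the next: the lowest library of AGR2, at 112 FPKM, lay above the highest of TFF3, at 37.2 FPKM, and the same held for TFF3 over REG4, REG4 over MUC13 and MUC13 over MUC1. Below them, MUC1 at 0.187 FPKM, SPDEF at 0.0535, FCGBP at 0.0226 and MUC2 at 0.00366 FPKM overlapped their neighbours, so their order did not exceed the spread between libraries. ATOH1 was listed at 0 throughout. MUC1 overlaps AL713999.1, a gene without counts, on its own strand, so the level of MUC1 and its place in this order are uncertain.

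**Figure D1:**
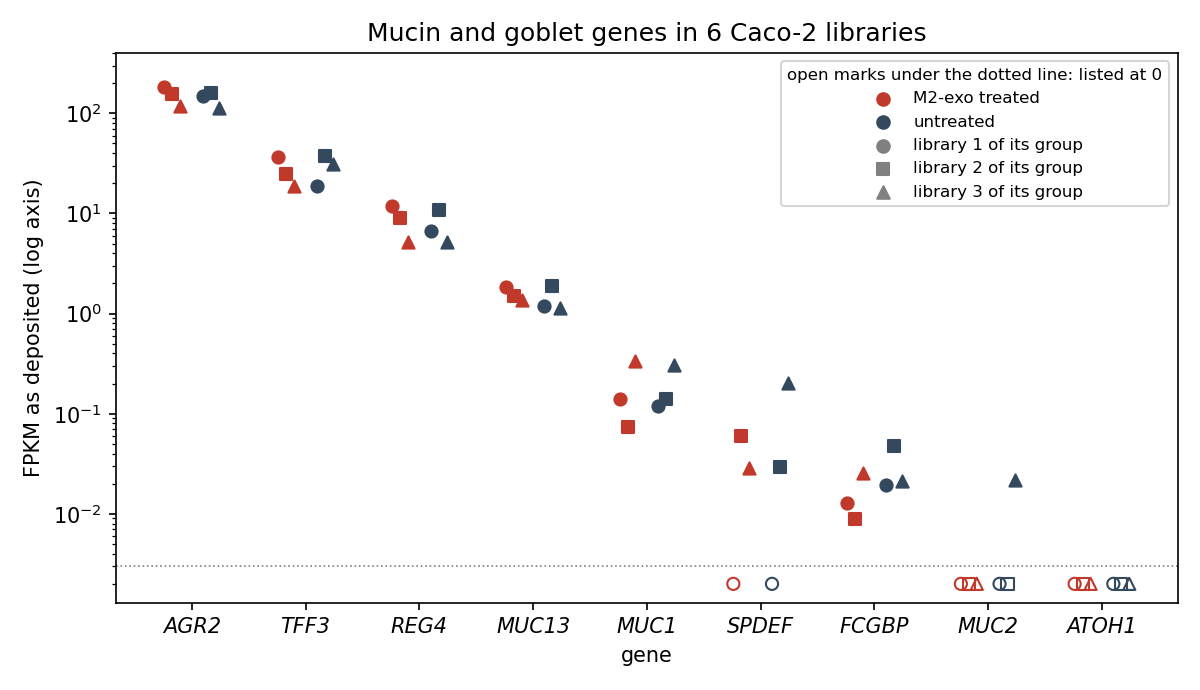
FPKM of the 9 genes in each library on a log axis, with M2-exo treated libraries in red left of untreated libraries in dark blue; open marks under the dotted line are values listed at 0. The genes AGR2, TFF3, REG4 and MUC13 form separate steps, while SPDEF, FCGBP, MUC2 and ATOH1 lie near or at 0 in both groups.

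Of the 9 genes ATOH1 alone had no count, and MUC2, SPDEF and FCGBP had few. ATOH1 had no count in any of the 6 libraries; a limit of 3 counts corresponds to 0.167 to 0.190 CPM, depending on the library, and covers counting error only. MUC2 had no count in any M2-exo treated library and 0, 0 and 5 counts in untreated libraries 1 to 3, so every MUC2 count came from a single library. SPDEF had 0, 2 and 1 counts in M2-exo treated libraries and 0, 1 and 7 in untreated libraries. FCGBP had 3, 2 and 6 counts in M2-exo treated libraries and 4, 11 and 5 in untreated libraries, on the longest gene model of the set, at 12961 bases. These 4 genes had too few counts to be tested, and no fold change is given for them.

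Of the 9 genes, 5 passed the filter on low counts and entered the comparison of M2-exo treated with untreated cells, by edgeR's quasi-likelihood test with Benjamini-Hochberg adjustment over all 15084 genes tested. None of the 5 was called, against 0% of all genes (0 of 15084), and the 2 groups overlapped in each of the 5, where 3.96% of all genes had groups that did not overlap (1.66% higher and 2.3% lower in M2-exo treated cells). At an unadjusted p of 0.05, edgeR counted 0 of the 5 and 111 of all genes, or 0.736%. DESeq2 called 0 genes, with 124 at an unadjusted p of 0.05. Without any effect, a share of 0.05 of genes would on average reach that p, so 0.736% is far below it. The reason was not tested, and a gene not called here is weak evidence of no change. The log2 fold changes, M2-exo treated over untreated, were above 0 for 3 and below 0 for 2, with a median of 0.11, beside -0.01 over all genes tested.

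Among the secreted and secretory-pathway genes, AGR2 had 521, 443 and 337 CPM in M2-exo treated libraries 1 to 3 and 434, 452 and 323 CPM in untreated libraries 1 to 3. The highest value was treated and the lowest untreated, but the groups overlapped over most of their range. The means were 434 ± 92.2 CPM in M2-exo treated and 403 ± 69.9 CPM in untreated cells (SD, n = 3 each), which gave 0.11 as log2 fold change (SE 0.19; edgeR adjusted p = 0.9999). The 95% interval of the fold change ran from 0.797 to 1.46. The estimate turned to -0.03 without treated 1 and to -0.02 without untreated 3.

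TFF3 had 42.9, 28.7 and 22 CPM in M2-exo treated libraries and 22.2, 43.5 and 37.1 CPM in untreated libraries. Both groups thus held a library near 43 CPM and another near 22 CPM, and the SD within each group exceeded the difference between the means. The means were 31.2 ± 10.6 CPM in M2-exo treated and 34.3 ± 10.9 CPM in untreated cells, a log2 fold change of -0.14 (SE 0.30; edgeR adjusted p = 0.9999; fold interval 0.569 to 1.45). It stood at 0.07 without treated 3, 0.09 without untreated 2 and -0.36 without untreated 1, whose mitochondrial share was lowest.

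REG4 had 42.1, 31.8 and 18.4 CPM in M2-exo treated libraries and 23.5, 37.6 and 18.4 CPM in untreated libraries. The lowest library of each group had the same level, and the highest value was in treated 1. The means were 30.8 ± 11.9 CPM in M2-exo treated and 26.5 ± 9.92 CPM in untreated cells, a log2 fold change of 0.22 (SE 0.34; edgeR adjusted p = 0.9999; fold interval 0.687 to 1.96). Without treated 1 it was -0.06, and without untreated 2 it was 0.57.

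Of the membrane mucins, MUC13 had 6.52, 5.27 and 4.84 CPM in M2-exo treated libraries and 4.19, 6.65 and 4.04 CPM in untreated libraries. The treated values lay inside the untreated range. The log2 fold change was 0.16 (SE 0.27; edgeR adjusted p = 0.9999; fold interval 0.728 to 1.71), from 0.04 without untreated 3 to 0.45 without untreated 2. MUC1 had only 12, 6 and 29 counts in M2-exo treated libraries and 9, 12 and 26 in untreated libraries, or 0.344 to 1.61 CPM and 0.571 to 1.46 CPM. Its log2 fold change of -0.04 (SE 0.61, edgeR adjusted p = 0.9999) came with a fold interval of 0.372 to 2.54, so for MUC1 a doubling or halving was not excluded. The intervals of AGR2, TFF3, REG4 and MUC13 held neither, though that of REG4 reached 1.96. All these intervals rest on the scatter of these 6 libraries.

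**Figure D2:**
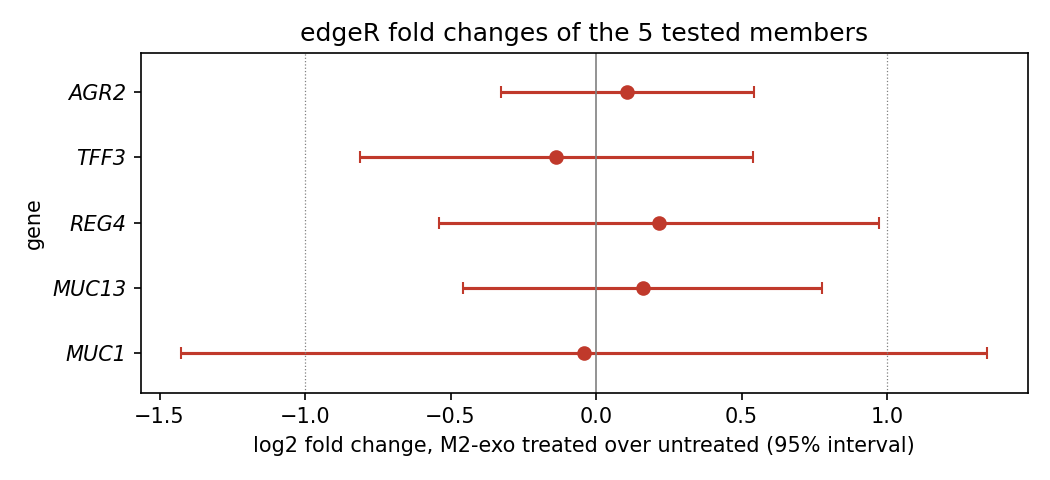
Log2 fold change, M2-exo treated over untreated, with its 95% interval from edgeR for the 5 genes tested; dotted lines mark -1 and 1 on the log2 scale. Every interval crosses 0, and MUC1, the gene with the fewest counts, has the widest, from -1.43 to 1.34.

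The members differed more between libraries than between groups, and not all in the same way. The library numbered 3 of each group had the lowest AGR2 and the lowest REG4 of its group, at 337 and 323 CPM for AGR2. MUC13 was also lowest there, at 4.84 CPM in treated 3 and 4.04 CPM in untreated 3, though untreated 1 was close at 4.19 CPM. The same libraries had the highest MUC1, at 1.61 and 1.46 CPM. TFF3 went another way, with its lowest level in treated 3 but in untreated 1. Over the 6 libraries the SD of log2 CPM was 0.52 for REG4, more than in 93.7% of the 10367 protein-coding genes with at least 5 CPM, 0.45 for TFF3 (90.3%), 0.30 for MUC13 (75.1%) and 0.27 for AGR2 (68.1%). The summed level of the 9 genes was 614, 509 and 385 CPM in M2-exo treated libraries and 484, 541 and 385 CPM in untreated libraries, of which AGR2 made 83.5% to 89.5%.

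**Figure D3:**
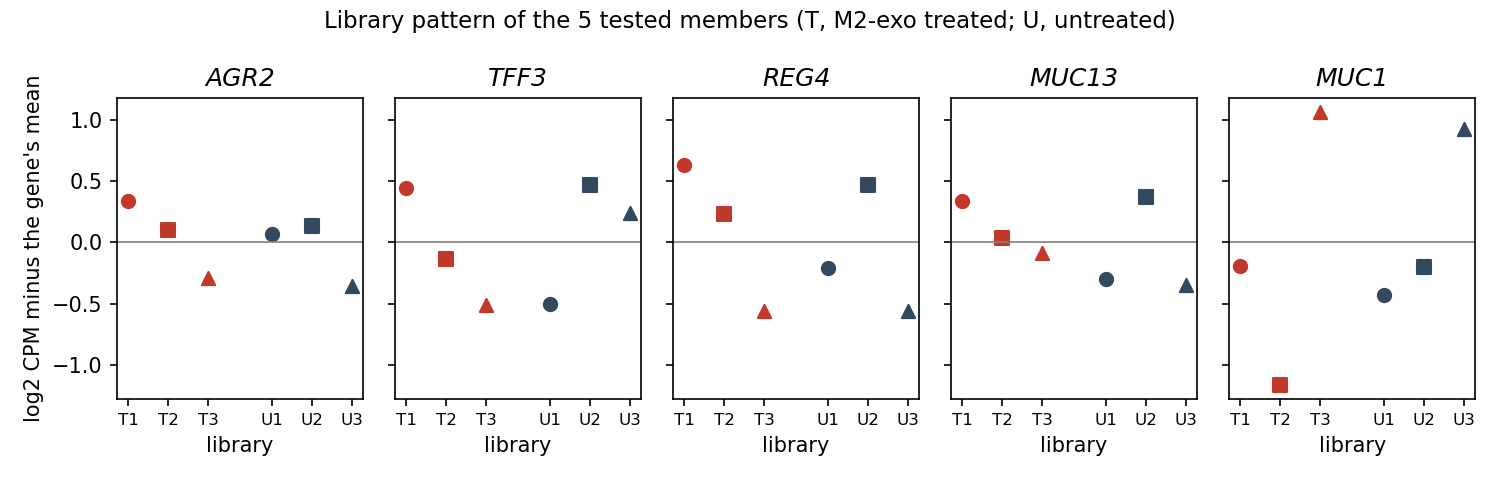
Log2 CPM of the 5 tested genes in each library, minus the gene's mean over the 6 libraries; M2-exo treated libraries (T, red) stand left of untreated libraries (U, dark blue). AGR2, REG4 and MUC13 are lowest within their group, and MUC1 is highest, in T3 and U3, while TFF3 is lowest in T3 and U1.

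Likeness of pattern was measured as the root mean square difference of log2 CPM, each gene centred on its own mean over the 6 libraries, among 10366 other protein-coding genes with at least 5 CPM. Closest to AGR2 were PEX11A and KIF20A, at 0.054 and 0.055, and closest to MUC13 were LRRC75B (0.086) and TEP1 (0.090). TFF3 was nearest to C1QTNF6 (0.142) and F2 (0.146), and REG4 to FILIP1L (0.134) and TUBA1A (0.168). None of these 8 genes is in the mucin and secretory lists, and with 6 libraries such nearness only describes these samples.

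To show the sequence before the start of genes at both ends of this range, promoters were taken from RefSeq (GRCh38.p14), which held 8 of the 9 members. The 250 bases before the start are given for AGR2, the highest member, for REG4, which shared its lowest libraries, and for MUC2, the gel-forming mucin with 5 counts. Capitals mark matches, on either strand, to the letters of 5 motifs. The TATA box of the core promoter was searched as TATAAA. The forkhead element of the FOXA pioneer factors was searched as TGTTTNC. The element of CDX2, the intestinal identity factor, was searched as TTTATNG. That of HNF4A, a nuclear receptor of gut and liver, was searched as CAAAGTNCA. The E-box, bound by ATOH1 and many other basic helix-loop-helix factors, was searched as CAGNTG. None of the matches shown overlaps another.
AGR2, chr7:16805000-16805249, minus strand: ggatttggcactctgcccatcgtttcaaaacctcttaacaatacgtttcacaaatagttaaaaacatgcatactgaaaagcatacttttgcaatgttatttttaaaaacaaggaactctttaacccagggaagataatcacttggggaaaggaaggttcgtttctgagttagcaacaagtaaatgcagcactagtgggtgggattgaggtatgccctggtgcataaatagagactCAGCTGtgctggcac
REG4, chr1:119811461-119811710, minus strand: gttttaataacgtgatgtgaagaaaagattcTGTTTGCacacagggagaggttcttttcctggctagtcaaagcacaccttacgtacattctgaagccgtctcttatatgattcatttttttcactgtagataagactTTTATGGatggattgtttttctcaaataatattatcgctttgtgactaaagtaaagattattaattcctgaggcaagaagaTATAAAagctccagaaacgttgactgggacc
MUC2, chr11:1074624-1074873, plus strand: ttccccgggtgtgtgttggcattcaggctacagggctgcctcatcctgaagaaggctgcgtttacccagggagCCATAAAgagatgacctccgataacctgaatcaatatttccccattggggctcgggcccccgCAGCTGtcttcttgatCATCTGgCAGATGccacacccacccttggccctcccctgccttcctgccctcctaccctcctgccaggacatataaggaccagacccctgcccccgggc
The REG4 window holds a TATA box whose first base lies 31 bases before the start, a CDX2 match at 112 and a FOXA match at 219. Of all 35116 promoter windows of this length, 10.7% hold a TATA box, 8.93% a CDX2 match and 15.5% a FOXA match. MUC2 holds 1 CDX2 match at 177 and 3 E-boxes at 115, 99 and 92, and AGR2 1 E-box at 15, an element found in 42.5% of windows. The MUC13 window, not printed, holds an HNF4A match at 51, which 0.94% of windows do. A match is a run of letters, not a shown binding site. The gene table starts some of these genes further upstream than RefSeq. Its AGR2 reaches from 16791811 to 16833433 and its MUC13 from 124905442 to 124953819, so both windows lie inside the longer gene model, and its REG4 ends at 119811660, so most of that window does too.

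The other mucins, from lists chosen with earlier results of these data known, were mostly at background too. No secreted mucin passed the filter: MUC6 had 19 counts, MUC5AC 22 and MUC5B 3 over all 6 libraries, and MUC7 and MUC19 had none. MUC6, MUC2, MUC5AC and MUC5B lie side by side on chromosome 11, with gaps of 38168, 47441 and 21927 bases. Of 10 further membrane mucins 1 was tested, MUC3A, at 11.2 ± 1.13 CPM in M2-exo treated and 11.6 ± 1.38 CPM in untreated cells (log2 -0.05, SE 0.20). MUC3A has close relatives in its gene cluster, between which reads could be split, so its level is uncertain. MUC20, which overlaps the transcript MUC20-OT1 on its own strand, and MUC17 followed at 0.0971 and 0.0316 FPKM, and MUC21, MUC22 and EMCN had no count.

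Of 18 other goblet and mucus-layer genes, 9 were tested and none was called, with 3 above 0 and 6 below 0 (median log2 -0.13, beside -0.01 over all genes). Without untreated 1, 4 were above 0 and 5 below, with a median of -0.0075. SPINK1, a secreted trypsin inhibitor, was the highest at 33.7 FPKM. It had 51.4, 35.0 and 43.2 CPM in M2-exo treated libraries and 58.3, 55.2 and 58.7 CPM in untreated libraries, so all treated values lay below all untreated ones; 2.3% of all genes tested did so. Its log2 fold change was -0.41 (SE 0.17; unadjusted p = 0.040, edgeR adjusted p = 0.9999). CAPN8, a calpain of mucous cells of the stomach, had the lowest fold change, at 10.6 ± 1.30 CPM in M2-exo treated and 14.6 ± 3.26 CPM in untreated cells (log2 -0.45, SE 0.22), also without overlap. BCAS1 had the highest (log2 0.36, SE 0.37). SYTL2, a regulator of vesicle docking, stood at 7.52 FPKM. RETNLB, a secreted goblet cell product, the channel BEST2 and LYPD8, a membrane-anchored protein of colonic surface enterocytes, had no count, and CLCA1, a metalloprotease of mucus, had 6 counts.

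Both other trefoil genes, which neighbour TFF3 on chromosome 21, were present at lower levels: TFF1 at 9.26 FPKM and TFF2 at 2.24 FPKM. TFF1 had 7.19, 5.22 and 4.06 CPM in M2-exo treated libraries and 6.41, 4.58 and 3.37 CPM in untreated libraries. Its lowest library was numbered 3 in each group, as for AGR2, REG4 and MUC13, and unlike TFF3, whose gap to TFF2 is 30705 bases. TFF2 had 2.25, 1.20 and 1.39 CPM in M2-exo treated libraries and 1.08, 3.18 and 2.13 CPM in untreated libraries; within the untreated group it was, like TFF3, lowest in library 1 and highest in library 2. Of the REG family beside REG4, REG1A had 28 counts and REG3A 3, while REG1B and REG3G had none.

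AGR3, the relative of AGR2 that lies 25971 bases from it on chromosome 7, averaged 2.53 FPKM, far below AGR2. It had 5.17, 2.29 and 2.17 CPM in M2-exo treated libraries and 2.41, 3.85 and 1.80 CPM in untreated libraries, and its log2 fold change of 0.26 (SE 0.43) was the highest of the 12 tested genes of folding in the endoplasmic reticulum. Those were 10 above 0 and 2 below, with a median of 0.07 and none called; without untreated 1 they were 7 above and 5 below. The general chaperones and isomerases led, HSPA5 at 216 FPKM, P4HB at 163 FPKM and PDIA4 at 153 FPKM, beside 146 FPKM for AGR2. PDIA5, which overlaps SEC22A on its own strand, had the lowest fold change (log2 -0.20, SE 0.15). ERN2, the stress sensor of goblet cells, had 5 counts in all, whereas its widely expressed relative ERN1 had 1778.

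The enzymes that build mucin O-glycans were well represented. Of 15 GALNT genes, which start the glycan, 11 were tested, 3 above 0 and 8 below (median -0.02), and none was called. GALNT6 led at 50.8 FPKM, though it overlaps SLC4A8 on the other strand, followed by GALNT1 at 23.8 and GALNT3 at 23.0 FPKM. The extremes were GALNT16 (log2 0.22, SE 0.49) and GALNT4 (log2 -0.61, SE 0.51), which overlaps POC1B on its own strand. GALNT12, named after its values were seen, had 7.06 ± 1.26 CPM in M2-exo treated and 10.0 ± 1.62 CPM in untreated cells without overlap (log2 -0.51, SE 0.23, edgeR adjusted p = 0.9999). Of 17 core and capping enzymes 12 were tested, 6 to each side (median 0.003) and none called. B4GALT1 at 44.0 FPKM, C1GALT1C1, the chaperone of the core enzyme, at 16.2 FPKM and C1GALT1, the core enzyme itself, at 9.20 FPKM were the highest. ST6GALNAC1, the sialyltransferase of goblet cells, had the highest fold change (log2 0.32, SE 0.58) at 98 counts, and ST3GAL1 the lowest (-0.15, SE 0.20). B3GNT6, the core 3 enzyme of the colon, had 9 counts in all. Of 6 genes of mucin cleavage and crosslinking, 4 were tested and none was called (median -0.02), with ADAM9 at 33.1 FPKM (log2 0.04), FURIN at 22.5 (log2 -0.15) and ADAM17 at 5.61 FPKM.

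**Figure D4:**
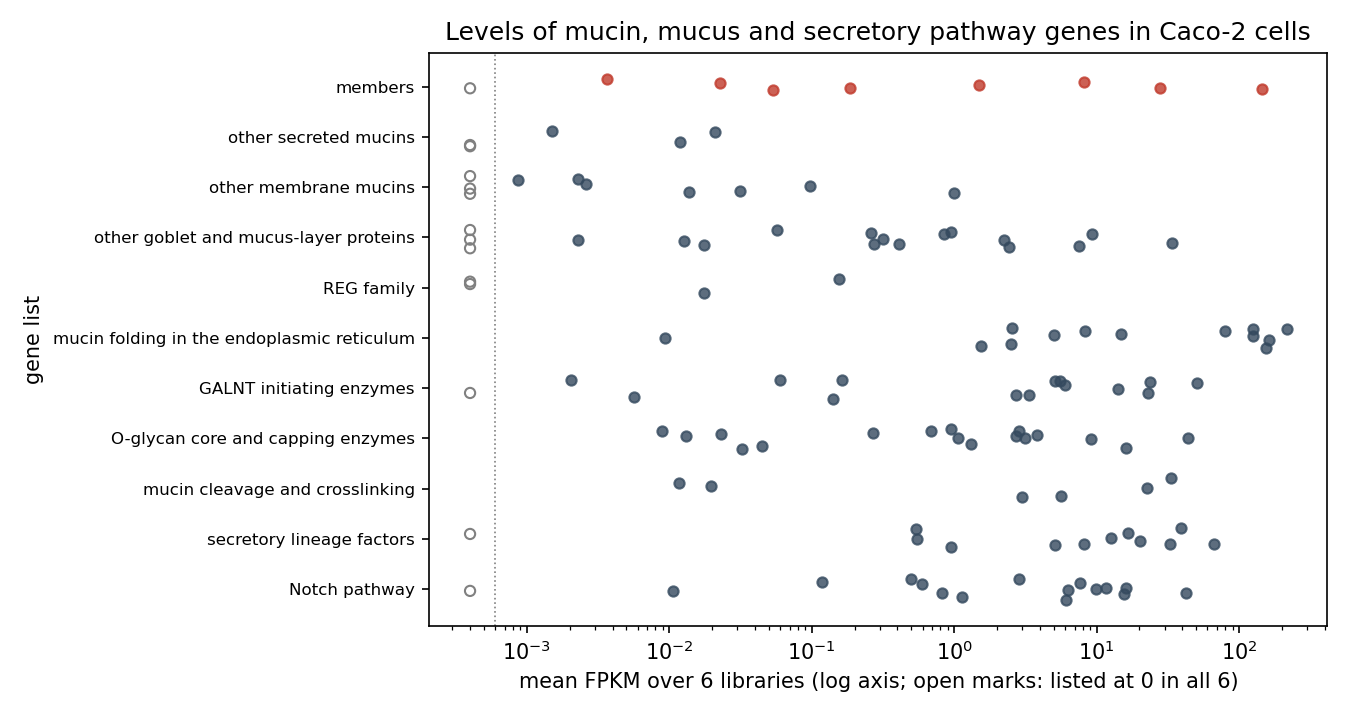
Mean FPKM over the 6 libraries of each gene in the mucin, mucus and secretory lists on a log axis, with the 9 genes of this account in red; open marks are genes listed at 0 in all libraries. HSPA5 of the folding list is highest at 216 FPKM and FOXA1 leads the lineage factors at 66.9 FPKM, while MUC6, the highest other secreted mucin, is at 0.021 FPKM.

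Of the lineage factors beside ATOH1 and SPDEF, the highest were those that act broadly in gut epithelium. FOXA1, a pioneer factor, averaged 66.9 FPKM, HNF4A 39.3 and SOX9, a progenitor and Paneth cell factor, 33.0 FPKM. CDX2 at 20.2, FOXA2 at 16.5, SOX4 at 12.7, FOXA3 at 8.18 and ELF3 at 5.10 FPKM came next. The lowest with any count were BHLHA15 at 0.947, GFI1 at 0.545 and KLF4 at 0.543 FPKM. Of these 12 lineage factors 11 were tested, 10 above 0 and 1 below, with a median of 0.09 and none called. Their summed level was 988, 885 and 1056 CPM in M2-exo treated libraries and 692, 947 and 1133 CPM in untreated libraries, so untreated 1, the library with 4.16% mitochondrial counts, was lowest. Without it the tally turned to 3 above 0 and 8 below, with a median of -0.04. KLF4, a factor of goblet cell maturation, had the highest fold change, with 1.80, 2.41 and 2.95 CPM in M2-exo treated libraries and 1.21, 1.45 and 2.19 CPM in untreated libraries (log2 0.56, SE 0.35; edgeR adjusted p = 0.9999). GFI1, which acts after ATOH1, had the lowest (log2 -0.02, SE 0.41) at 189 counts, and NEUROG3, the enteroendocrine factor, had none. In the Notch pathway, which holds ATOH1 off through HES1, 13 of 16 genes were tested, 10 above 0 and 3 below (median 0.11), and none was called. Their summed level was 823, 839 and 961 CPM in M2-exo treated libraries and 746, 838 and 930 CPM in untreated libraries, again lowest in untreated 1, and without it 7 were above 0 and 6 below (median 0.02). HES1 led at 42.3 FPKM, at 77.7, 85.4 and 112 CPM in M2-exo treated libraries and 57.4, 84.6 and 109 CPM in untreated libraries. MAML1 stood at 16.0 and NOTCH3 at 15.7 FPKM; JAG2 had the highest (log2 0.32, SE 0.32) and DLL4 the lowest fold change (-0.13, SE 0.34).

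Markers of the other intestinal cell types showed how the line compares. In these bulk samples, fewer cells of a type and less RNA per cell cannot be told apart. Enterocyte markers were uneven: APOA1 averaged 464 FPKM, VIL1 80.3 and DPP4 72.5 FPKM, but 6 of the 12 were under 1 FPKM. These were APOA4 at 0.548 FPKM, SI at 0.432 FPKM, ANPEP at 0.291 FPKM and LCT at 0.203 FPKM, with SLC5A1 at 9 counts and FABP2 at none. Of the 12 markers 10 were tested, 2 above 0 and 8 below (median -0.14). The extremes were SI, sucrase-isomaltase, with 7.19 CPM in treated 1 and 0.899 to 2.79 CPM in the other 5 libraries (log2 0.97, SE 0.62), and FABP1 (-0.45, SE 0.30). Of 7 Paneth cell markers 3 were tested, PLA2G2A at 10.4 FPKM, PRSS2 at 3.03 (log2 0.18) and LYZ at 1.90 FPKM (log2 -0.65, SE 0.36); DEFA5 had no count and DEFA6 2. Of 12 enteroendocrine markers 2 were tested, SCGN at 13.1 FPKM (log2 -0.02) and CHGB at 0.229 FPKM (log2 0.11), while CHGA had 8 counts. Of 8 tuft cell markers 1 was tested, AVIL at 0.336 FPKM (log2 -0.38, SE 0.31), and DCLK1 had none. Of 8 fibroblast markers 5 were tested, led by PDGFRA at 4.17 FPKM (log2 0.37) and COL1A1 at 2.89 FPKM (-0.11), while COL1A2 and DCN had 2 counts each. None of these markers was called.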

How the data were processed

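Gene counts were deposited by the authors as whole numbers per gene and sample; per the submitters' processing notes, CASAVA, HISAT2 and featureCounts were used with GRCh38, without stated versions. The deposited FPKM values equal those counts over gene length, times 1 factor for each library. No source used here gives the strand setting or the handling of multi-mapped reads, so levels of overlapping genes and close relatives are uncertain. Across both gene tables, 6 columns that match no sample were left unused.

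Genes were filtered with filterByExpr by group, scaled by TMM and tested 2-sided with edgeR 4.0.16 (R 4.3.3), with Benjamini-Hochberg adjustment at 0.05 over 15084 genes. SE was taken as the absolute log2 fold change over the root of the F statistic. CPM are TMM-scaled, with a prior count of 2 on the log scale. On 3 simulated tables of 15084 genes, known changes in this comparison were placed only in genes with a mean of at least 5 CPM. Of these, 8.78% of the 1.5-fold changes were found, 47.8% of the 2-fold and 99.5% of the 4-fold ones. The rates do not cover MUC1, at a mean of 0.889 CPM. The simulated libraries also held no effects shared by many genes of a library. Alternatives were DESeq2 1.42.0, RLE, total counts, 2 other filters, limma 3.58.1 on log2 FPKM with pseudocounts of 1 or 0.1, a replicate block, and fits without each library in turn.

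Tallies of the lists without untreated 1 were added after seeing the data. Members and the 17 other gene lists were chosen with earlier results of these data known. Named are all members and, of each list, the 3 highest genes by mean FPKM and the highest and lowest fold change, beside genes with few or no counts. Further genes were named outside this rule, among them CDX2, FOXA2, SOX4, FOXA3, ELF3, ERN1, TFF2 and GALNT12. All 192 listed genes matched the table by symbol.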

Additional observations from a re-analysis of the deposited data

How the results depend on the processing

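No member passed under any alternative run. The number of genes passing was 0 and stayed 0 under the alternatives, except for 6 of 29414 genes with no filter on low counts; over the fits that left out a library it ran from 0 to 1, with the 1 found without treated 2. The cause was not tested. RLE and total counts kept the sign of all 5 tested members, as did the other filters, DESeq2 and the FPKM fits, except that MUC1 has no value at a mean CPM of at least 1. Directions turned only where a library was left out: MUC1 stood at 0.13 without treated 1, 0.34 without treated 2 and 0.51 without untreated 3. TFF3 stood at 0.07 without treated 3 and 0.089 without untreated 2, AGR2 at -0.026 without treated 1 and -0.016 without untreated 3, and REG4 at -0.059 without treated 1. With a library left out, log2 fold changes ran from -0.81 to 0.51 for MUC1, from -0.42 to 0.089 for TFF3, from -0.026 to 0.27 for AGR2, from -0.059 to 0.57 for REG4 and from 0.04 to 0.45 for MUC13. The log2 ratio of the summed level of the 9 genes was 0.10, and -0.07 to 0.26 with a library left out. It turned below 0 without treated 1 (-0.07) and without untreated 3 (-0.03). These shifts were less than the spread between replicates (0.30). Leaving out 1 of 3 libraries could hardly exceed that spread, so this comparison shows no stability. Depth limits MUC1, SPDEF, FCGBP, MUC2 and ATOH1, whose 94 counts or fewer allow no narrow interval.

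The labels give no pairing beyond the number in the title, so the main fit held no replicate block. Same-numbered libraries correlated in their deviations from the group means at 0.28, -0.06 and 0.48 for numbers 1 to 3. Libraries 1 and 3 correlated best with their own number, library 2 did not. Whether same-numbered libraries share a batch was not tested. The lowest edgeR adjusted p of any gene was 0.9999 in the main fit and 0.415 with a replicate block. With the replicate block in edgeR, 0 genes and 0 members passed, with 211 genes at an unadjusted p of 0.05 against 111 without it, and the members' log2 fold changes were 0.10 for AGR2, -0.15 for TFF3, 0.20 for REG4, 0.18 for MUC13 and -0.12 for MUC1.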

Other observations

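Several goblet and lineage genes had too few counts to be tested and were picked here after their values were seen. SPINK4, a small secreted peptide of goblet cells, had 5, 11 and 3 counts in M2-exo treated libraries and 1, 0 and 2 in untreated libraries; it overlaps BAG1, an expressed gene on the other strand. HEY1, a Notch target, had 11, 8 and 10 counts in M2-exo treated libraries and 1, 4 and 7 in untreated libraries. PTGS1, a cyclooxygenase of tuft cells among others, had 0, 1 and 4 counts in M2-exo treated libraries and 8, 14 and 10 in untreated libraries. ST6GALNAC6, a sialyltransferase, had 0, 0 and 1 counts in M2-exo treated libraries and 1, 3 and 8 in untreated libraries. This gene lies wholly inside AL157935.2 on its own strand, so its counts are uncertain. In CPM the groups did not overlap in these 4 genes, out of 23 listed genes with at least 10 counts that the filter left out. Of all 5286 such genes, 8.53% had groups that did not overlap.

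CDX2, the intestinal identity factor, had 86.7, 78.6 and 109 CPM in M2-exo treated libraries and 35.3, 88.9 and 104 CPM in untreated libraries. Its low value lay in untreated 1, where the mitochondrial share was 4.16%. FOXA2 (23.2 CPM) and HNF4A (207 CPM) were also at their lowest of the 6 libraries there. So were FOXA1, FOXA3, SOX9, ELF3, KLF4 and BHLHA15, whereas SOX4 was not and GFI1 was at its highest, 2.41 CPM. The share of all tested genes that were lowest in untreated 1 was not counted. TFF3 was at 22.2 CPM there. The part of the state of untreated 1 in these values was not tested.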
